A study of Mus musculus with 33 samples.

Results

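The livers of mice fed fish oil for 2 weeks were compared with the livers of mice fed a control oil for the same time, on 11 and 10 arrays, which are 21 of the 33 arrays of the series. The arrays were chosen by their titles, and every gene measured on them was considered. All animals were C57BL/6J males that entered the study at 12 weeks of age, acclimated for 3 weeks and were 17 weeks old when they were fasted and their livers taken. The control diet supplied 7% of its energy as a sunflower oil with 81.3% oleic acid. The fish oil diet supplied the same 7% as Marinol C-38, an oil with 23.1% eicosapentaenoic acid and 21.1% docosahexaenoic acid. Because the controls also ate an added oil, each difference given here is one between oils. A further 12 mice ate the control diet with 0.03% (w/w) fenofibrate, a drug that activates the nuclear receptor PPARα. Their arrays share the statistical model and serve as a reference for single genes. Mice were housed 2 per cage, and which mice shared a cage is not given in the sources used here.

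Long-chain omega-3 fatty acids reach the hepatocyte as acyl groups that are activated to coenzyme A esters before they are oxidised, built into phospholipids or exported in lipoproteins. As background, they can bind PPARα, which turns on genes of fatty acid oxidation, and they restrain SREBP-1, the factor that turns on genes of fatty acid synthesis. The same organ modifies drugs, steroids and bile acids with cytochromes P450, transferases and esterases, and it makes most proteins of the blood plasma.

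Each value is a deposited log2 signal of 1 probe set on 1 array, so a difference of 1 is a 2-fold change. The threshold for a call was an adjusted p of 0.05 in a linear model per gene (limma, Benjamini-Hochberg adjustment over the 9005 genes tested), and "rose", "fell", "higher" and "lower" are used for called genes. Array medians lay between 2.9 and 2.97, and 16401 to 16781 probe sets reached a log2 signal of 4 on the 21 arrays. The arrays fitted their label as liver. Alb, which encodes serum albumin, had a log2 signal of 14.95 ± 0.06 (SD, n = 10) in controls and 14.94 ± 0.05 (SD, n = 11) on fish oil and ranked 3 among all genes. The summed linear signal of 18 hepatocyte markers ran from 286579 to 302688 over the control arrays and from 278921 to 301285 over the fish oil arrays. One array per mouse limits the precision to that of 10 and 11 animals.

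Fish oil changed many genes by small amounts. Of 9005 genes, 1308 were called (14.5%), of which 678 were higher (7.53%) and 630 lower (7%). The median size of the called differences was 0.33, and 960 of the 1308 (73.4%) were smaller than 0.5. A change of at least 2-fold was called for 98 genes (1.09%), and these were more often lower, 71 against 27 higher. The median difference over all genes was 0.01.

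For 95 genes (1.05%) no fish oil array overlapped any control array. The signals of 34 of them were higher on fish oil and those of 61 lower. The lists of sterol synthesis and of fatty acid synthesis and desaturation account for 14 of these 95 genes, so 81 lie outside them, 34 higher and 47 lower. Those 2 lists, with 20 of 20 and 19 of 23 measured members lower, are given here for scale. Fads2, the desaturase that starts the conversion of essential fatty acids into longer ones, fell by 1.61 on the log2 scale (SE 0.09). Sqle, the squalene oxidising step of sterol synthesis, fell by 5.01 (SE 0.46), with 8 of 11 fish oil arrays under a log2 signal of 4, so that the size is uncertain.

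The response was then followed array by array. For each array, genes were called again without it, and its signals were set against the mean of the other controls. Of the 11 fish oil arrays, 10 had between 91.2% and 98.1% of these genes on the called side, with a median signed deviation of 0.22 to 0.39. Fish oil replicate 9 stood apart, with 69.1% of genes on the called side and a median deviation of 0.15. Among the 10 controls the share ran from 44.0% (replicate 10) to 71.4% (replicate 3), and the largest median deviation toward the fish oil side was 0.12, in control replicate 9. Replicate 9 of the fish oil group therefore lay within the range of the controls by its share of genes and just above it by its median deviation. Without this array 1554 genes were called. Arrays with consecutive numbers in the labels were also taken in pairs of one diet. The deviations of 6 of 10 such label pairs correlated above 0.1 (all 10 between 0.03 and 0.42). With these label pairs as a random block 845 genes were called (9.4%). Over all arrays left out 1 at a time, the count ran from 1099 to 1554.

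**Figure D1:**
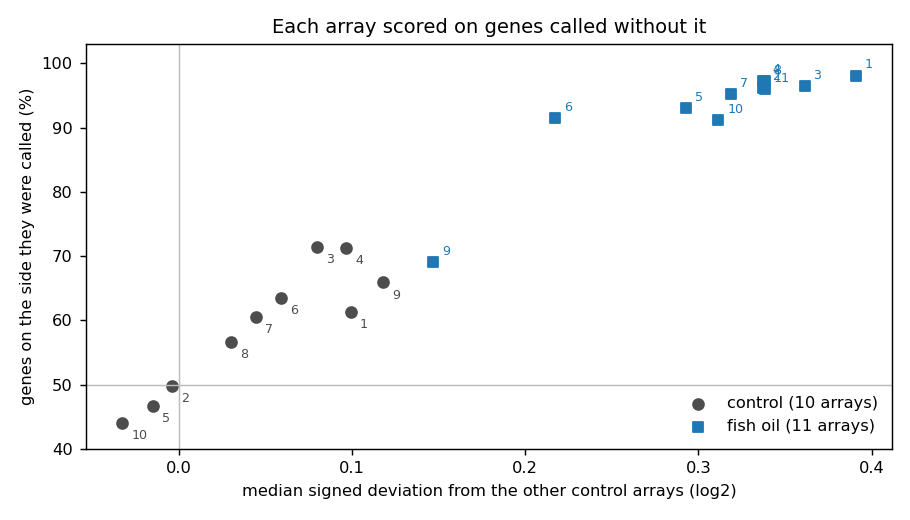
Score of each array on genes called without it; the x axis is the median signed deviation from the other control arrays on the log2 scale, the y axis the percentage of those genes on the called side, and numbers are replicates. Of the 11 fish oil arrays, 10 lie at 91.2% or higher, and fish oil replicate 9 lies at 69.1%, beside the controls.

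The widest separation in the comparison belonged to Cyp17a1, the hydroxylase and lyase that makes androgen precursors. Its log2 signal was lowest at 8.72, 9.27 at the median and highest at 11.29 in controls, and on fish oil it was 3.03, 4.16 and 5.21. Every fish oil array lay at least 3.51 below the lowest control. The difference was −5.59 (SE 0.29, adjusted p = 1e-15). On 5 of 11 fish oil arrays the signal was under 4, the level a gene had to reach on 10 of the 33 arrays to be tested, so the size of this difference is uncertain. The fenofibrate arrays had a mean of 10.10 ± 0.45 (SD, n = 12), and fish oil differed from them as well (adjusted p = 3.49e-18).

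Apoa4, an apolipoprotein of chylomicrons and HDL, had the next widest gap, 2.10. Its log2 signal ran from 11.64 through 12.36 at the median to 13.96 in controls, and from 8.44 through 9.04 to 9.54 on fish oil. It fell by 3.56 (SE 0.24, adjusted p = 4.51e-13), or 11.8-fold. Other plasma lipoprotein genes moved much less. Of 22 measured genes of apolipoproteins and VLDL assembly 8 were lower and 1 higher (40.9% called, against 14.5% of all genes), and the median was −0.04. Apoc2, the cofactor of lipoprotein lipase, fell by 0.60 (SE 0.06) with no overlap between the groups. Apof fell by 0.30 (SE 0.06) and Apoa5 by 0.27 (SE 0.06). Apoa1, the main protein of HDL and the gene ranked 2 by control signal, fell by 0.14 (SE 0.04, adjusted p = 0.00607).

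Ccnd1, which encodes cyclin D1 of the G1 phase, separated the groups as well. Controls ran from 8.69 through 9.53 to 10.29, and fish oil arrays from 6.73 through 7.68 to 8.29. It fell by 1.87 (SE 0.19, adjusted p = 1.08e-08), and fenofibrate arrays, at 9.62 ± 0.38 (SD, n = 12), did not differ from controls by the same test (adjusted p = 0.588). The other cell cycle genes did not share it. Of 32 measured, 2 were lower and 1 higher (9.4%, against 14.5% of all genes). Btg2, a brake on proliferation, was the other lower gene, at −0.84 (SE 0.18). Tnfaip8l1 fell by 1.15 (SE 0.13) with a gap of 0.28.

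The largest fitted rise was that of Krt23, a keratin. It was under the level of 4 on 9 of 10 control arrays and passed the filter through the other arrays, so its size and rank are uncertain. Controls ran from 3.00 through 3.54 to 4.32, and fish oil arrays from 4.37 through 7.48 to 8.43. The difference of 3.73 (SE 0.30, adjusted p = 3.71e-11) left the groups just apart, by 0.05, since fish oil replicate 9 had the value of 4.37. Rad51b, a gene of recombination repair, rose by 2.57 (SE 0.56), from a control range of 2.12 to 8.78 to a fish oil range of 4.40 to 8.61. These ranges overlap, the highest control was replicate 9, and 5 of 10 controls lay under 4. Rab30, a small GTPase of the Golgi, rose by 1.41 (SE 0.28) with overlapping arrays too.

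**Figure D2:**
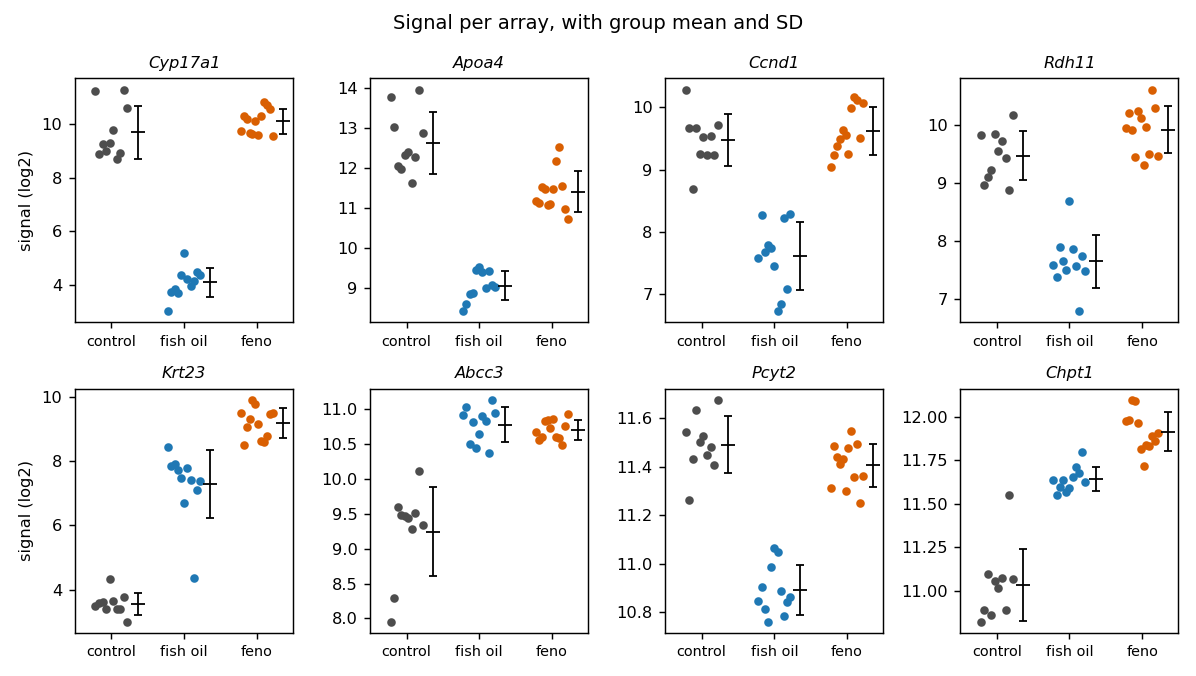
Log2 signal (y axis) of 8 genes on every array of the control (10), fish oil (11) and fenofibrate (12, feno) groups; points are arrays, and the bar beside them is the mean with its SD. For all 8 genes, no fish oil point overlaps a control point.

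In the lists of fatty acid oxidation most members were called, nearly all of them higher. In mitochondrial beta-oxidation 15 of 19 measured genes were higher and 1 lower, with a median of 0.27 against 0.01 for all genes, of which 7.53% were higher. In the peroxisomal pathway 11 of 18 were higher and none lower (median 0.21; 9 called with the label pairs as a block), and in omega-oxidation 6 of 8 (median 0.67). Decr1, which reduces double bonds of unsaturated acyl-CoA, ran from 11.60 through 11.92 to 12.14 in controls and from 12.16 through 12.40 to 12.47 on fish oil. It rose by 0.48 (SE 0.05, adjusted p = 1.95e-08) with no overlap. Eci1, which moves such double bonds, rose by 0.55 (SE 0.07), and Acadvl, the very long chain dehydrogenase, by 0.31 (SE 0.04).

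The gene that fell was Cpt1a, the gene of the outer membrane carnitine transferase that lets long chains into mitochondria. It fell by 0.34 (SE 0.07, adjusted p = 0.000473), and 4 of 11 fish oil arrays lay below the lowest control. Slc25a20, the carnitine carrier of the inner membrane, rose by 0.40 (SE 0.08), while none of its fish oil arrays exceeded control replicate 9. Crot, which makes carnitine esters in peroxisomes, rose by 0.66 (SE 0.08) with no overlap, and Ech1, an isomerase of double bonds, by 0.56 (SE 0.06). Ehhadh, the bifunctional enzyme of peroxisomes, rose by 1.20 (SE 0.18), although control replicate 1 reached 13.40 and only 2 of 11 fish oil arrays lay above it.

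The control arrays were not alike in these genes, and control replicates 1, 2 and 9 were known from earlier results to stand apart. The median member of the mitochondrial list deviated from the control mean by −0.16 in control replicate 2 and by 0.28 in replicate 9, and the fish oil arrays ran from 0.16 (replicate 9) to 0.36 (replicate 2). Cyp4a14, an omega-hydroxylase of fatty acids, shows the width of it. Its log2 signal in controls ran from 7.10 (replicate 2) through 11.73 to 13.85 (replicate 9), and on fish oil from 13.23 through 13.82 to 13.96. The rise of 2.48 (SE 0.47, adjusted p = 0.000249) thus went with a narrow fish oil group beside a wide control group. Acot1, a cytosolic thioesterase that frees fatty acids from coenzyme A, rose by 1.73 (SE 0.29) and its mitochondrial relative Acot2 by 1.37 (SE 0.33), and in both the highest control overlapped the fish oil arrays. Without control replicates 1, 2 and 9, the mitochondrial and peroxisomal lists had 16 and 11 called members, as many as with them. Probe sets of Cyp4a, Acot, Ces, Gst, Ugt and H2 genes can bind transcripts of close relatives, and the value of any 1 member is uncertain for that reason.

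The enzymes that attach coenzyme A to fatty acids split by family. Of 10 Acsl, Acsm and Acss genes with a probe set 7 were measured, and all 7 were called, 4 lower and 3 higher. The 4 that fell were Acsl3, Acsl4 and Acsl5, for long chains, and Acss2, for acetate. Acsl3 ran from 6.72 through 7.43 to 8.13 in controls and from 4.94 through 5.85 to 6.42 on fish oil, and it fell by 1.64 (SE 0.16, adjusted p = 4.24e-09). Acss2, the acetate enzyme, fell by 1.59 (SE 0.18), and Acsl4, which prefers arachidonate, by 0.52 (SE 0.09), both with no overlap. Acsl5 fell by 0.56 (SE 0.07), with 10 of 11 arrays below the lowest control. Acsm1, Acsm3 and Acsm5 act on medium chains in mitochondria, and they rose by 0.24 (SE 0.07), 0.37 (SE 0.10) and 0.46 (SE 0.10). The Acsm differences shrink without control replicates 1, 2 and 9, to 0.20, 0.22 and 0.25, and that of Acsm3 is then no longer called (adjusted p = 0.062).

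Fatty acid binding and uptake genes also parted. Fabp5, a binding protein of skin and macrophages that was bright in these livers (rank 201), ran from 11.60 through 12.96 to 13.28 in controls and from 8.67 through 10.25 to 12.17 on fish oil. It fell by 2.60 (SE 0.27, adjusted p = 1.95e-08), and fish oil replicate 9 held the highest value. Fabp2, the intestinal type, fell by 0.76 (SE 0.10) with no overlap. Slc27a2, the liver's very long chain transporter, rose by 0.16 (SE 0.03), and Lpl, the lipase of capillary walls, by 0.77 (SE 0.21).

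Membrane phospholipid genes changed at specific steps. Of 23 measured, 4 were higher and 5 lower (39.1% called, against 14.5% of all genes), and the median was 0.05. Pcyt2, the rate-limiting step of phosphatidylethanolamine synthesis, had the smallest adjusted p of the list, 5.37e-11. Its log2 signal ran from 11.26 through 11.49 to 11.68 in controls and from 10.76 through 10.86 to 11.07 on fish oil, and it fell by 0.60 (SE 0.05). Chpt1, the last step of phosphatidylcholine synthesis, went the other way. It ran from 10.82 through 11.04 to 11.55 in controls and from 11.55 through 11.64 to 11.80 on fish oil, a rise of 0.61 (SE 0.06, adjusted p = 1.08e-08). The groups of Chpt1 missed each other by 0.002, and control replicate 9 was the array nearest to them.

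Pemt, which methylates phosphatidylethanolamine into phosphatidylcholine, fell by 0.41 (SE 0.07). Chkb, a kinase of choline and ethanolamine, rose by 0.46 (SE 0.10), and the phospholipases Pla2g6 and Pla2g12a by 0.53 (SE 0.10) and 1.00 (SE 0.19). Mfsd2a, a transporter of DHA as lysophosphatidylcholine, ran from 9.67 through 10.45 to 11.75 in controls. On fish oil it ran from 4.01 through 8.06 to 9.97, and it fell by 3.11 (SE 0.49, adjusted p = 2.14e-05). In 10 of 11 fish oil arrays it lay below the lowest control. Pltp, which moves phospholipid between lipoproteins, fell by 1.06 (SE 0.12) with no overlap, and Lipg, the endothelial lipase that hydrolyses HDL phospholipid, by 1.41 (SE 0.34). Npc2 and Lipa, which carry and free cholesterol in lysosomes, fell by 0.39 (SE 0.05) and 0.42 (SE 0.06), and Abca1, the exporter of cholesterol to HDL, rose by 0.18 (SE 0.05).

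Most storage and glycerolipid genes were not called. Of 18 genes of lipid droplets 4 were higher and 2 lower (33.3% called, median −0.01), and of 12 genes of glycerolipid synthesis 4 were higher and 1 lower (41.7%), against 14.5% of all genes. The latter count was 2 with the label pairs as a block and 3 without control replicate 2, 8 or 10. Hsd17b11, a droplet protein, rose by 0.70 (SE 0.08) with no overlap, and Fitm1, which helps droplets to bud, by 1.00 (SE 0.18). Gpat3, an acyltransferase, rose by 1.63 (SE 0.38) within a control range of 3.02 to 7.91, and by 2.47 without control replicates 1, 2 and 9.

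Genes of drug and hormone handling rose in several families. Of 44 measured Cyp genes 14 were higher and 4 lower (40.9%, against 14.5% of all genes). This family also holds hydroxylases of steroids and fatty acids, such as Cyp17a1 and Cyp4a14. Of 22 Cyp1 and Cyp2 genes 6 were higher and 1 lower (31.8%). With the label pairs as a block 4 of these 22 were called, and 4 without control replicates 1, 2 and 9. The Ugt family, whose enzymes attach glucuronic acid, had 6 of 9 higher and none lower, and carboxylesterases, which cleave esters of drugs and lipids, had 7 of 12 higher and none lower. ABC transporters had 8 of 29 higher and 1 lower. Glutathione S-transferases were mixed, with 5 of 19 higher and 5 lower.

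Abcc3, which exports glucuronides and bile salts into the blood, had the widest gap among the named genes that rose, 0.26. Controls ran from 7.95 (replicate 1) through 9.45 to 10.11 (replicate 9), and fish oil arrays from 10.38 through 10.83 to 11.13. It rose by 1.53 (SE 0.16, adjusted p = 2.35e-08). Ephx1, the microsomal epoxide hydrolase, rose by 1.18 (SE 0.13), and Ephx2, its soluble relative that opens epoxides of fatty acids, by 0.27 (SE 0.05). Gsta2 rose by 1.61 (SE 0.22), and Gstm2, of another class of the same enzymes, fell by 1.21 (SE 0.15) with no overlap. The pumps Abcg2 and Abcc2 rose by 0.81 (SE 0.11) and 0.29 (SE 0.05).

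Ugt3a1 rose by 0.70 (SE 0.08) with no overlap and Ugt2b35 by 0.56 (SE 0.09). Ugdh, which makes the glucuronic acid donor, rose by 0.56 (SE 0.11). Sult1a1, a phenol sulfotransferase, went down, from controls between 12.45 and 13.05 to fish oil arrays between 11.20 and 12.37, by 0.93 (SE 0.15) with no overlap. Nr1i3, the receptor CAR that drives many of these genes, rose by 0.67 (SE 0.16, adjusted p = 0.00372), and by 0.41 without control replicates 1, 2 and 9.

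Carboxylesterase values rest partly on those controls. Ces1d, Ces1e, Ces1f and Ces2a rose by 0.68 (SE 0.13), 0.89 (SE 0.12), 0.40 (SE 0.08) and 0.61 (SE 0.15). Control replicate 1 or 2 held the lowest value of each, and the median member of the list was −0.50 in control replicate 1 and no lower than 0.06 on any fish oil array. Without control replicates 1, 2 and 9 the differences were 0.45, 0.66, 0.24 and 0.32, all still called, and 6 of the 12 members were called.

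Aox3, an aldehyde oxidase chosen after its values were seen, ran from 11.11 through 11.52 to 11.85 in controls and from 11.98 through 12.47 to 12.81 on fish oil, a rise of 0.97 (SE 0.10, adjusted p = 5.95e-09) with no overlap. Cyp2d9, a steroid hydroxylase of male liver, rose by 0.40 (SE 0.09) with no overlap, and Cyp3a11 by 0.21 (SE 0.05). Cyp2c23, an epoxygenase, rose by 0.69 (SE 0.13) with no overlap. Cyp2c50 rose by 0.44 (SE 0.14, adjusted p = 0.0256), but that call was lost without control replicate 1, the lowest control, with the label pairs as a block (adjusted p = 0.0625), and without control replicates 1, 2 and 9 (difference 0.29, adjusted p = 0.162).

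**Figure D3:**
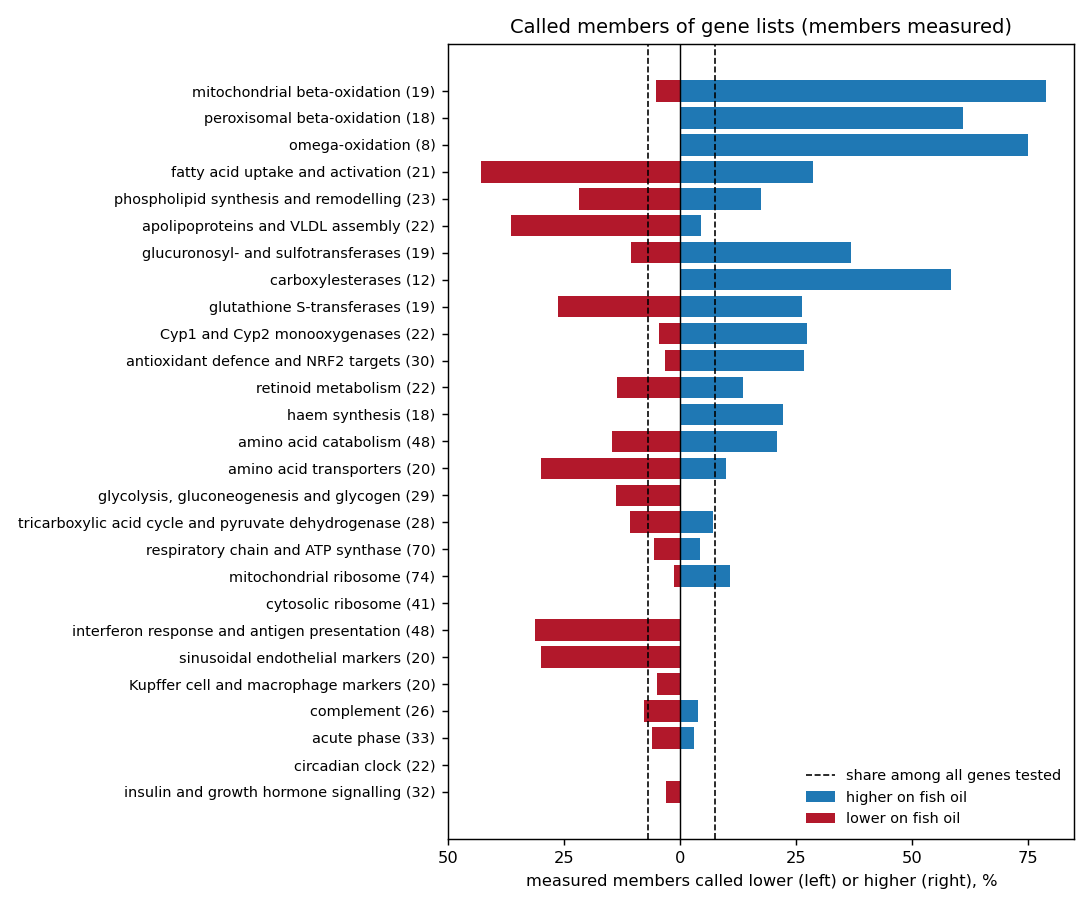
Percentage of the measured members of 27 gene lists that were called higher (right) or lower (left) on fish oil, with the number measured in brackets; dashed lines are the shares among all 9005 genes, 7.53% and 7%. Oxidation lists and carboxylesterases extend far to the right, interferon and endothelial lists extend left, and cytosolic ribosome and circadian clock genes show no bar.

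Most antioxidant and haem genes were not called. Of 30 genes of antioxidant defence 8 were higher and 1 lower, with a median of 0.08, where 7.53% of all genes were higher. Gclm, a subunit of the enzyme that starts glutathione synthesis, rose by 0.43 (SE 0.08), and Sod2, the mitochondrial superoxide dismutase, by 0.21 (SE 0.04), both with no overlap. Blvrb, a biliverdin reductase, rose by 0.51 (SE 0.09). Of 18 haem genes 4 were higher and none lower, among them the haem transporter Slc48a1, at 0.48 (SE 0.08), and the iron-sulfur scaffold Iscu, at 0.25 (SE 0.05). Mt2, a metallothionein, rose by 1.67 (SE 0.53, adjusted p = 0.0311), but the call was lost in 12 of 31 alternatives, with adjusted p up to 0.0623. Its control values ran from 5.51 to 11.08 (replicate 2) and spanned those of fish oil, 6.87 to 10.62.

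Of 22 measured genes of retinoid metabolism 3 were higher and 3 lower (27.3% called, against 14.5% of all genes), and 4 had no overlap, as had 1.05% of all genes. Rdh11, which reduces retinal, ran from 8.88 through 9.50 to 10.18 in controls and from 6.79 through 7.59 to 8.69 on fish oil, and it fell by 1.83 (SE 0.18, adjusted p = 5.95e-09). Bco1, which cleaves beta-carotene, fell by 0.96 (SE 0.15), with a low signal, between 5.35 and 6.86 in controls. Aldh1a1, which makes retinoic acid, rose by 0.47 (SE 0.05), and Dhrs4, another retinal reductase, by 0.64 (SE 0.08). Retsat, a retinol saturase outside the list, rose by 1.17 (SE 0.12), the largest called rise among the 300 brightest genes.

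Steroid and sex-biased genes showed single large changes against a wide spread of animals. Hsd17b6, which oxidises androgens and retinol, rose by 1.55 (SE 0.36), and by 0.99 without control replicates 1, 2 and 9. Esr1, the oestrogen receptor alpha, ran from 6.57 through 7.44 to 8.65 in controls and from 4.88 through 5.81 to 7.29 on fish oil, and it fell by 1.61 (SE 0.24, adjusted p = 8.71e-06). Hamp2, a hepcidin paralogue, fell by 1.73 (SE 0.23), Cyp39a1, a sterol hydroxylase, by 1.74 (SE 0.41), and Tff3, a secreted trefoil peptide, by 3.67 (SE 0.65) with 5 of 11 fish oil arrays under 4. Keg1, of the male-biased list, rose by 0.87 (SE 0.14).

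Across the 22 measured female-biased genes 6 were lower and 2 higher (36.4% called, against 14.5% of all genes). The median member of that list deviated by −0.85 in control replicate 2 and by 1.10 in control replicate 9, although all mice were males. Its SD over arrays was 0.52 in controls and 0.37 on fish oil, wider than the difference between the group means (0.02 and −0.21). The 28 male-biased genes had 3 higher and 1 lower, and control replicate 9 was the lowest control, at −0.74.

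Interferon and antigen presentation genes were lower where they changed. Of 48 genes of interferon response and antigen presentation 15 were lower and none higher (31.2%, against 14.5% of all genes), with a median of −0.24 against 0.01. H2-K1, a class I antigen presenter, fell by 0.30 (SE 0.04), with 10 of 11 fish oil arrays below the lowest control. H2-Q10, a secreted class I molecule of liver, fell by 0.20 (SE 0.04) with no overlap. Ifitm3, which blocks viral entry, fell by 0.30 (SE 0.06), Psmb8, of the immunoproteasome, by 0.43 (SE 0.11), and Oas1a, a sensor enzyme of viral RNA, by 0.63 (SE 0.13). The signal of Oas1a was low, between 4.74 and 5.99 in controls, near the filter level of 4. Among 27 genes of chemokines, cytokines and innate sensing 4 were lower and 1 higher (18.5% called, near the 14.5% of all genes). The count was 3 without control replicate 6 or 8 and with the label pairs as a block, and 8 without control replicates 1, 2 and 9. Ly6e fell by 0.72 (SE 0.12), and Pglyrp2, which degrades bacterial wall, by 0.61 (SE 0.08) with no overlap.

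Some markers of sinusoidal endothelium were lower as well. Of 20 measured 6 were lower and none higher (30.0% called, against 14.5% of all genes; median −0.17), and their summed linear signal ran from 7933 through 8711 to 9431 in controls and from 7343 through 7801 to 8199 on fish oil. Flt4, a receptor of these cells, fell by 0.42 (SE 0.07), and Clec4g, a lectin, by 0.24 (SE 0.06). With the label pairs as a block 2 of the 20 were called, a share near the 9.4% of all genes under that block, and leaving out 1 array gave 2 to 7, with 2 without fish oil replicate 1, 3, 4 or 10 or control replicate 5, 6 or 8. Kupffer cell markers had 1 of 20 lower, with summed signals of 17071 to 26224 in controls and 15725 to 25456 on fish oil, and none of 23 stellate cell markers was called. The part of cell markers in the immune result was not tested, and in whole tissue fewer cells of a type and less RNA per cell cannot be told apart. Fish oil replicate 9 held the highest median of the fish oil arrays for the interferon list (−0.05), the Kupffer markers (0.37) and the acute phase genes (0.52).

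Plasma proteins other than apolipoproteins stayed near the background share of 14.5%. Of 26 complement genes 1 was higher and 2 lower, of 30 coagulation genes 5 were lower (3 without control replicate 5 or 6), and of 33 acute phase genes 1 was higher and 2 lower. Orm1, the acid glycoprotein that ranked 42 by control signal, ran from 13.68 through 13.96 to 14.69 in controls and from 12.70 through 13.36 to 14.59 on fish oil. It fell by 0.71 (SE 0.15, adjusted p = 0.00133), and fish oil replicate 9 was the one array near the top of the controls. Apcs, serum amyloid P, fell by 0.91 (SE 0.22). Control replicates 1 and 2 stood at 12.81 and 13.04 for Apcs, and the other controls between 11.29 and 11.81. Over the alternatives its difference ran from −1.04 to −0.64. Without control replicates 1, 2 and 9, 7 of the 33 acute phase genes were called.

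Of 30 hepatokines and growth factors 5 were lower and none higher (16.7% called, near the 14.5% of all genes), and 4 were called with the label pairs as a block. Fgf21, a fasting hormone, ran from 4.15 through 4.61 to 8.29 in controls and from 1.99 through 2.73 to 4.10 on fish oil, and it fell by 2.22 (SE 0.41, adjusted p = 0.000187) with no overlap. On 10 of 11 fish oil arrays it was under 4, so the size is uncertain. Lect2 fell by 0.61 (SE 0.10) and Inhba by 0.49 (SE 0.11). The signal of Inhba was low, between 4.81 and 5.25 in controls, near the filter level of 4. Atf5, a factor of stress and amino acid responses, fell by 0.78 (SE 0.13) with no overlap and was the lower of the 2 called among 31 liver transcription factors.

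The share of sugar genes called was near that of all genes. None of 29 genes of glycolysis, gluconeogenesis and glycogen was higher and 4 were lower (13.8% called, against 14.5%; median −0.11). Pklr, the liver's pyruvate kinase, ran from 9.11 through 10.08 to 10.86 in controls and from 8.31 through 8.61 to 9.63 on fish oil, and it fell by 1.22 (SE 0.18, adjusted p = 9.42e-06). Aldoc, an aldolase, fell by 1.62 (SE 0.29), and Tpi1, which interconverts triose phosphates, by 0.18 (SE 0.04). Without control replicates 1, 2 and 9, 10 of the 29 were called. Slc25a1, which exports citrate from mitochondria, fell by 0.52 (SE 0.06), Cs, citrate synthase, by 0.41 (SE 0.07), and Idh2 rose by 0.52 (SE 0.09). Cs fell by 0.22 when its 3 probe sets were averaged.

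Promoter windows of the genes were searched for letters that SREBP and its partner NF-Y are known to recognise. RefSeq windows of GRCm38.p6, from 250 bases before to 50 after a start, were at hand for 7391 of the 9005 genes. The sterol element letters TCACNCCAC on either strand were found in 110 of them (1.49%), in 9 of 510 genes called lower (1.76%) and in 12 of 551 called higher (2.18%). The pentamer CCAAT on either strand was found in 43.1% of all, 51.2% of those called lower, 41.9% of those called higher and 66.7% of the 54 that fell at least 2-fold. All 16 sterol synthesis genes with a window held it, and 6 of 17 of mitochondrial beta-oxidation did. So did 11 of 19 genes of fatty acid synthesis, 8 of 14 of the peroxisomal pathway and 10 of 19 that rose at least 2-fold. The sterol element letters were in 1 of the 16 sterol synthesis genes and in none of the 19 of fatty acid synthesis. Searched apart from the SREBP and NF-Y letters, AGGTCA repeated with 1 base between was found in 2 of the 7391. A match is a description of letters, not of binding. The windows of 3 genes that fell are shown for the different letters they hold. Hmgcs1, an early step of sterol synthesis, fell by 0.89 (SE 0.19), and Aldoc and Slc25a1 by the amounts given. Capitals mark both motifs, which do not overlap in these windows (ATTGG is CCAAT read on the other strand). Hmgcs1 holds 1 sterol element and 4 CCAAT letters, the window shown for Aldoc (1 of its 2) holds 1 sterol element, and Slc25a1 holds 2 CCAAT letters.
Hmgcs1, chr13:119690101-119690400 on the plus strand: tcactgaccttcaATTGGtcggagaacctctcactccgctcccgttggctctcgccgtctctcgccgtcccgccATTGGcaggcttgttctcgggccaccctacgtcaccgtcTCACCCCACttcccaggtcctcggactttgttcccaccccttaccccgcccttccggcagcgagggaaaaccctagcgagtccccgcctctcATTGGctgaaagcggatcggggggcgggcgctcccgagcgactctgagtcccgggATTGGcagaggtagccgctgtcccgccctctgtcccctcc
Aldoc, chr11:78322823-78323122 on the plus strand: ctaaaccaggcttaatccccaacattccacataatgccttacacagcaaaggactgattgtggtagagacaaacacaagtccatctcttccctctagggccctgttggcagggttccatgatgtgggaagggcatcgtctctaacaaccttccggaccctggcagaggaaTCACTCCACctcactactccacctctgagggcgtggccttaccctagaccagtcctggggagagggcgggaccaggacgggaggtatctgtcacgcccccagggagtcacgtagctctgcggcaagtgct
Slc25a1, chr16:17928170-17928469 on the minus strand: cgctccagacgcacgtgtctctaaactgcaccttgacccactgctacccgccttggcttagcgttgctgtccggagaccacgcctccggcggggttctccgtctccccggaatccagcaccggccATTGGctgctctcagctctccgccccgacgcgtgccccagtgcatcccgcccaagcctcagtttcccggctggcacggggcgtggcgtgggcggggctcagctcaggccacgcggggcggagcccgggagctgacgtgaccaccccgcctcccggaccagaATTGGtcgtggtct

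Amino acid genes were called often, in both directions. Of 48 genes of amino acid catabolism 10 were higher and 7 lower (35.4%, against 14.5% of all genes), 9 in all with the label pairs as a block. Of 20 amino acid transporters 2 were higher and 6 lower, 4 in all with that block or without control replicate 10, and 5 without control replicate 5. Qdpr, which recycles the cofactor of phenylalanine hydroxylase and ranked 117 by control signal, fell by 0.28 (SE 0.05). Of 22 genes of methionine and one-carbon metabolism 3 were higher and 5 lower, and Chdh, which oxidises choline, rose by 0.41 (SE 0.07). Slc3a1, a subunit of a cystine and dibasic amino acid transporter, fell by 0.79 (SE 0.17), and Slc1a4, a neutral amino acid carrier, by 0.50 (SE 0.11), or by 0.32 without control replicates 1, 2 and 9. The signal of Slc1a4 was low, between 4.27 and 5.33 in controls, near the filter level of 4. In the urea cycle 1 of 13 was higher and 4 lower, but none was called with the label pairs as a block, and the count fell to 1 without fish oil replicate 1 or 3.

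Several large classes had shares of called genes near or under that of all genes. None of 41 cytosolic ribosome genes was called and 7 of 168 Zfp genes were (4.2%), against 14.5% of all genes. The respiratory chain had 3 higher and 4 lower of 70 (4 in all without control replicate 3 or 5), the mitochondrial ribosome 8 higher and 1 lower of 74 (12.2%), and insulin and growth hormone signalling 1 lower of 32. No circadian clock gene of 22 was called, and the list varied widely between animals. Its median member deviated by −0.83 in control replicate 1 and by 0.40 in control replicate 3, and ran from −0.59 to 0.36 on fish oil. Without control replicate 1, 2 clock genes were called, and without control replicates 1, 2 and 9, 7 were.

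**Figure D4:**
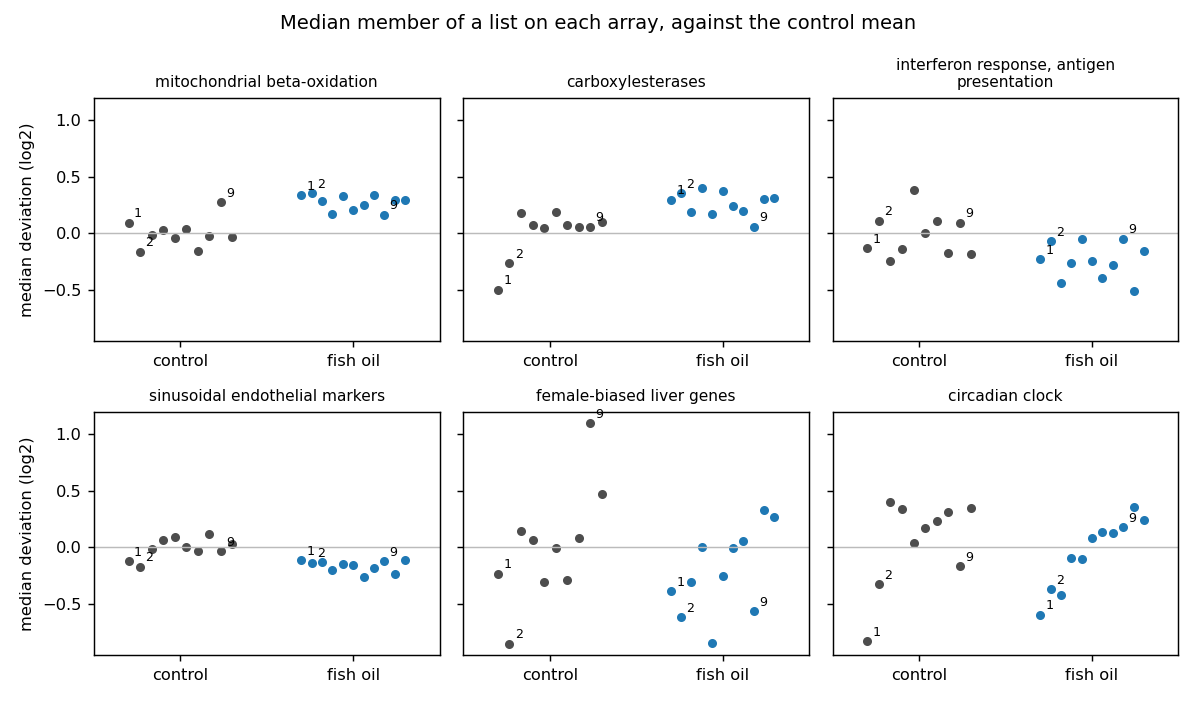
Median member of 6 gene lists on each array, as the deviation from the control mean on the log2 scale (y axis), for 10 control and 11 fish oil arrays; points are arrays and numbers mark replicates 1, 2 and 9. The oxidation list lies between 0.16 and 0.36 on fish oil, whereas female-biased and clock genes range more widely within a group than between groups.

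Calls were then counted by brightness in control liver. The 300 brightest genes had control means of 12.47 or higher, and 90 of them were called (30.0%), 39 higher and 51 lower, against 14.5% of all genes. Among genes ranked 3001 to 9005 the share was 11.5%, with a median SE of 0.10 against 0.04 among the first 100. The called bright genes changed by a median of 0.23, and 7 of them by at least 2-fold. The lists of sterol and fatty acid synthesis hold 6 of the 90, so 84 lie outside. After Apoa4, Fabp5, Thrsp and the desaturases and elongases, the next bright falls were Sult1a1, Ly6e and Orm1, described with their groups.

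Thrsp, a nuclear protein of lipogenic cells, fell by 2.18 (SE 0.33). Cyb5r3, which passes electrons to desaturases and other enzymes, fell by 0.51 (SE 0.06). After Retsat, Ces1d and Crot, the largest bright rises were those of Creg1, a secreted glycoprotein of lysosomes, at 0.53 (SE 0.06), Aldh1a1, and Acat1, the thiolase of ketone bodies, at 0.45 (SE 0.05) with no overlap. Acaa1b, a peroxisomal thiolase at rank 52, rose by 0.40 (SE 0.06).

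Fish oil and fenofibrate were compared directly for the named genes, in a contrast that does not use the controls. Both sets of differences from control share the same 10 control arrays, so they are given side by side. Acsl3 was at −1.64 on fish oil and 0.80 on fenofibrate, Acsl5 at −0.56 and 0.63, Fabp2 at −0.76 and 0.92, and Pltp at −1.06 and 1.80. The diets differed in each (adjusted p = 1e-14, 5.09e-16, 4.33e-16 and 1.67e-19). Lipa stood at −0.42 and 0.41, and Cs at −0.41 and 0.37, again with a difference between the diets (adjusted p = 4.92e-14 and 6.1e-12).

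Several oxidases among the named genes had the reverse signs. Of these, 4 are given, and Aox3 and Cyp2c23 were chosen after their values were seen. Aox3 was at 0.97 on fish oil and −1.18 on fenofibrate, Cyp2c23 at 0.69 and −0.56, Cyp2c50 at 0.44 and −1.44, and Cyp4v3, a fatty acid hydroxylase, at 0.53 and −0.62. The direct contrast was called in each (adjusted p = 4.42e-19, 7.82e-10, 1.38e-13 and 1.58e-13). Clec2h, a lectin, was at 1.82 and −2.40, with 3 of 10 controls under 4. All 12 fenofibrate arrays lay under 4 for Clec2h as well, from 1.77 to 3.90, so the size of its fenofibrate difference is uncertain. Its fish oil difference was 0.81 without control replicates 1, 2 and 9. Some genes that rose on both diets differed in size. Lpl stood at 0.77 and 3.29, Acot1 at 1.73 and 3.41, and Cyp4a31 at 1.59 and 4.36, each called in the direct contrast. Slc27a1, a fatty acid transporter, lay under 4 on all 10 control arrays and between 3.64 and 4.41 on fish oil, and passed the filter through the fenofibrate arrays (mean 7.55 ± 0.54, SD, n = 12), so its fitted differences of 0.60 and 4.20 are uncertain. For Abcc3 (1.53 and 1.46), Ephx1 (1.18 and 1.21), Gsta2 (1.61 and 1.26) and Esr1 (−1.61 and −1.38) the direct contrast was not called, with differences between the diets of 0.07 (SE 0.16), −0.03 (SE 0.12), 0.35 (SE 0.21) and −0.23 (SE 0.23).

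**Figure D5:**
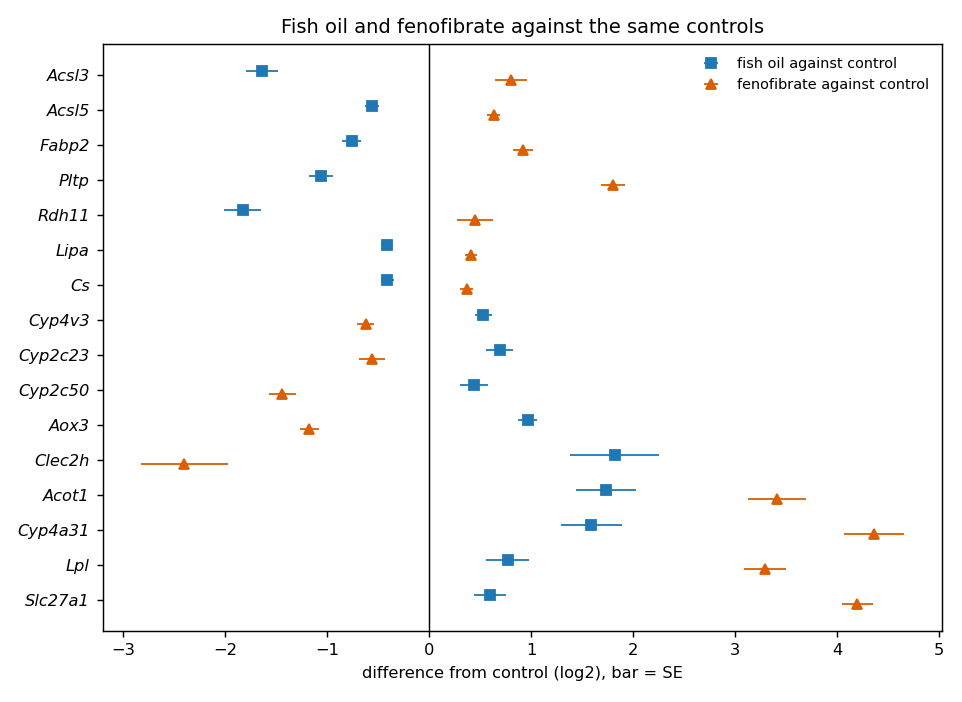
Difference from control on the log2 scale (x axis) for 16 genes on fish oil (squares) and fenofibrate (triangles), with the SE; both use the same 10 control arrays. Acsl3 to Cs lie left of 0 on fish oil and right of 0 on fenofibrate, Cyp4v3 to Clec2h the other way round, and the last 4 genes lie right of 0 on both, farther on fenofibrate, with Slc27a1 under a log2 signal of 4 on all 10 control arrays. Clec2h was under 4 on every fenofibrate array.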

How the data were processed

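Liver RNA was measured on Affymetrix arrays, 1 per mouse, from 5 µg of RNA with an integrity number above 8, per the labels. The deposited values are log2 signals, and the submitters' processing notes name GCRMA 2.24.1 as the normalisation. Each gene was represented by its probe set with the highest mean, and 9005 genes with a log2 signal of at least 4 on at least 10 of 33 arrays were tested. One model of the 3 group means over 33 arrays was fitted with limma 3.58.1 in R 4.3.3 (moderated, two-sided, Benjamini-Hochberg, threshold 0.05). The code was checked on data with known changes. Of 50 planted changes at each log2 size, 48% were recovered at 0.3, 88% at 0.5, 96% at 1 and 98% at 2. In that check 6.25% of calls fell on unchanged genes. A gene that was not called may therefore still have changed by a small amount. Alternatives were 31 other fits. The labels give no cages, so p-values assume that mice are independent. Members and gene lists were chosen with earlier results of these data known. Genes named were the 15 largest rises and falls among called genes with a mean of at least 6 in the higher group, in each list the 5 members lowest in adjusted p, the 10 largest bright rises and falls, and the 15 widest gaps. A further 14 were chosen after their values were seen (Acsl4, Acsm1, Acsm3, Acsm5, Alb, Aox3, Chkb, Cpt1a, Cyp2c23, Hmgcs1, Lpl, Pla2g12a, Slc27a1 and Slc27a2).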

Additional observations from a re-analysis of the deposited data

Results flagged for a closer look

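For 12 of 139 named genes, 1 of the 10 control arrays lay apart from the others by more than Dixon's 95% critical value. Chance gives this in about 1 in 20 groups, and the 11 fish oil arrays were not tested in this way. Control replicate 9 was the array for 5 genes. It was highest for Chpt1 (log2 signal 11.55), Ech1 (12.73), Eci1 (11.38) and Slc25a20 (11.71), and lowest for Fabp5 (11.60), in each case toward the fish oil group. Control replicate 2 was lowest for Acat1 (12.13), Blvrb (10.18), Pla2g12a (4.48) and Qdpr (13.05). Control replicate 5 was highest for Npc2 (10.95) and Pglyrp2 (11.53), and control replicate 1 was lowest for Cyp2c50 (12.04).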

How the results depend on the processing

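Of the 139 named genes 138 were called, and 135 kept the call in every alternative that tested them. The exceptions were Mt2, Cyp2c50 and Acsm3. Most named genes were picked by size, gap or adjusted p in these same data, so these counts were largely set by that choice. They do not describe the calls in general, which covered 1308 of all 9005 genes (14.5%). For Bco1, Fgf21, Inhba, Oas1a and Slc1a4 there were 30 alternatives and not 31. A stricter filter, at a log2 signal of 6, removed these low genes from 1 fit. With the label pairs as a random block (consensus correlation 0.23) 845 genes were called, 439 higher and 406 lower. With array weights 1057 genes were higher. Without control replicates 1, 2 and 9, 277 genes had no overlap between the groups. Taking arrays out can only keep or raise a count of genes with no overlap. That count and those with 1 array left out therefore could not fall below the 95 of all arrays. Leaving out 1 array gave 1099 to 1554 changed genes, 571 to 856 higher, 515 to 698 lower, 90 to 109 changed at least 2-fold, 97 to 148 with no overlap (148 without control replicate 9) and 76 to 95 changed among the 300 brightest. The replicate block, with the replicate number as a term, gave 1318 changed genes. Deviations of same-numbered arrays correlated above 0.1 in 6 of 10 pairs (all 10 between −0.21 and 0.28). The label pairs also did so in 6 of 10 (all 10 between 0.03 and 0.42). The main model used neither grouping, and each served only in an alternative. The median SE was 0.10 at ranks 3001 to 9005 against 0.04 among the first 100.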
